A study of Camellia sinensis with 15 samples.

Results

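Tea roots treated with cadmium (Cd) for 10 d (Cd1) were compared here with tea roots treated with arsenic (As) for 10 d (As1), so that the responses to the 2 elements are set directly against each other and not only against untreated roots. The comparison used 5 of the 14 distinct libraries of the study, the libraries Cd1-1 and Cd1-2 and the libraries As1-1, As1-2 and As1-3. The 3 libraries of untreated roots (CK) serve to show which treatment differed from them in a gene. The 6 libraries of the 15 d treatments (Cd2 and As2) serve to show whether a difference was also present later. Genes with an FPKM (a fragment count scaled to transcript length and library size) of at least 1 in 2 or more of the 5 libraries were tested. This left 30226 genes, or 51.1% of the 59128 genes listed.

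All libraries came from roots of the wild-type cultivar 'Fuding Dabaicha' (Camellia sinensis). Per the study's methods, seedlings of 2 years were grown in pots and given 400 mL of a solution of 120 mg/kg, with Cd(II) for Cd1 and Cd2 and with As(V) for As1 and As2, and the control seedlings were left untreated. The sampling times of 10 d and 15 d come from these methods, while day 15 stands in the label of each library. The methods give no sampling day for the control seedlings. A difference from CK therefore cannot be told apart from a difference in time. The methods give 3 replicates per group without saying whether each was a separate plant, so the p-values measure the spread between these libraries.

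Cd and As reach root cells by different routes. Cd is taken up as a divalent cation by transporters of iron, zinc, manganese and calcium, whereas arsenate resembles phosphate and enters through phosphate transporters, after which it is reduced to arsenite inside the cell. Inside the cell the routes converge, since Cd and arsenite both bind thiol groups, are complexed by glutathione and phytochelatins and provoke oxidative stress.

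The third library labelled Cd1 held the same values as Cd2-1, and its header names Cd2-1. It was used only as Cd2-1, which left Cd1 with 2 libraries. The 14 libraries held 10483398 to 13847059 fragments, recovered from the steps of the FPKM values. The 2 Cd1 libraries had 13847059 and 11606439 fragments, and the 3 As1 libraries had 12049643, 12883748 and 13368235. On log2(FPKM + 1), the correlation between a Cd1 and an As1 library lay between 0.916 and 0.938 over 46517 genes, against 0.947 between the Cd1 libraries and 0.952 to 0.962 between the As1 libraries. On FPKM without the log, the Cd1 libraries correlated at 0.901, within the range of 0.804 to 0.921 between a Cd1 and an As1 library. The As1 libraries then correlated at 0.932 to 0.968. These correlations are across genes, which are not independent replicates. Genes above 0 numbered 36480 and 39745 in Cd1 and 37658, 35674 and 37407 in As1. The groups overlapped, and the difference was not past an exact permutation test (two-sided p = 0.6, over 10 regroupings that allow no p under 0.1).

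A total of 640 DEGs were found in Cd1 vs. As1 (limma-trend on log2(FPKM + 1), Benjamini-Hochberg FDR under 0.05 and |log2 fold change| over 1), or 2.12% of the genes tested. Of these, 209 (0.691%) were higher in Cd1 and 431 (1.43%) were lower in Cd1. The lower share of 67.3% depended on the threshold. It was 52.0% at an unadjusted p under 0.05 and 80.0% at an FDR under 0.01. On this scale the lower genes differed more. Their median difference was 1.96 log2 units and reached 8.06, and 80 of them differed by more than 3 log2 units. The higher genes had a median of 1.63 with a maximum of 3.79, and 5 differed by more than 3 log2 units. The median log2 fold change over all genes tested was 0.002. The lower genes were also the more abundant, with a median mean FPKM of 27.8 over the Cd1 and As1 libraries, against 5.03 for the higher genes and 6.88 for all genes tested. More of these libraries were As1, where the lower genes were high, and the same libraries picked the DEGs. The gap in abundance thus follows in part from the choice. At FPKM close to 0 the log2(FPKM + 1) scale understates a fold change, which bears on the comparison of sizes between the directions. Of the 209 higher genes, 19 were at 0 in every As1 library. Of the 431 lower genes, 9 were at 0 in every Cd1 library. In the reported DEGs no Cd1 library overlapped an As1 library, as was true of 34.2% of all genes tested.

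**Figure D1:**
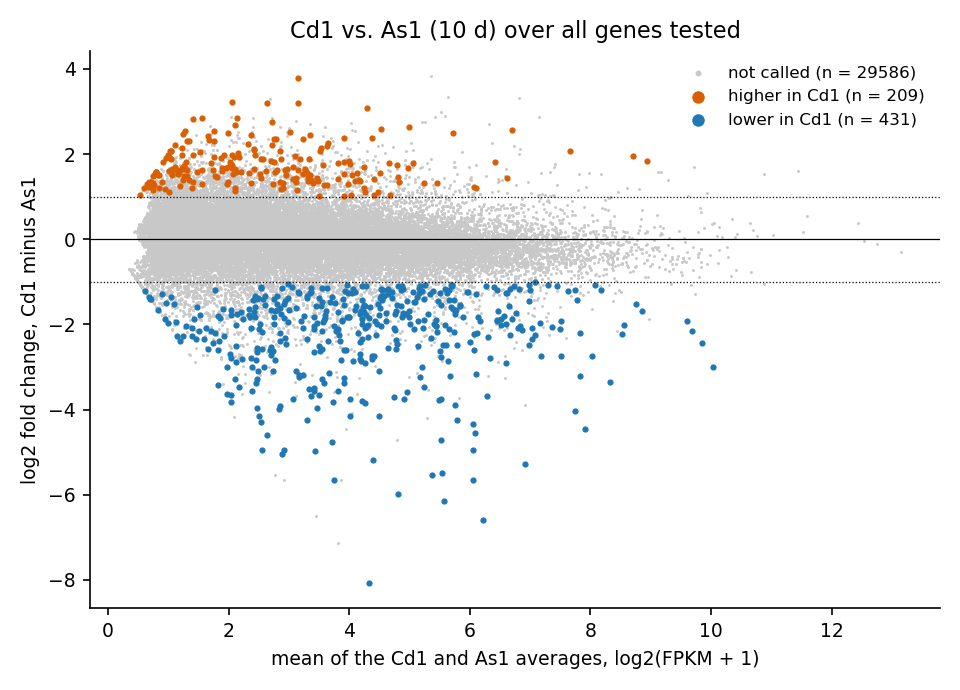
Log2 fold change of Cd1 minus As1 against the mean of the group averages on log2(FPKM + 1), with 1 point per gene tested. The 209 DEGs higher in Cd1 (orange) stay below 3.79, while the 431 lower ones (blue) reach -8.06 and include most of the abundant DEGs; dotted lines mark a log2 fold change of 1 in either direction.

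The DEGs lower in Cd1 made up 1.02% and 1.02% of the fragments in Cd1-1 and Cd1-2, against 4.13%, 4.06% and 4.98% in As1 and 2.49%, 3.20% and 3.36% in CK. The untreated roots thus lay between the treatments, as they did for the DEGs higher in Cd1. Those took 0.831% and 1.02% of the fragments in Cd1, 0.257%, 0.287% and 0.182% in As1, and 0.546%, 0.527% and 0.429% in CK. These shares describe the genes the test picked and carry no test of their own.

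The number of DEGs depended on single libraries. It was 219 without Cd1-1, 108 without Cd1-2, 337 without As1-1, 646 without As1-2 and 230 without As1-3. When 1 Cd1 library was left out, the remaining one was assumed to vary like the other groups. A core of 47 DEGs was called in the same direction whichever of the 5 libraries was left out, 40 of them lower and 7 higher in Cd1. Of these, 35 (31 lower, 4 higher) were also called in the same direction in all 24 other fits tried. Among the lower genes of the core, CSS0040192 rested on 2, 1 and 2 fragments in As1 and 0 in every other library. It was not among the 35. The genes described first below are those with the largest differences, and the libraries whose omission ended a call are given with them.

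The largest differences were in genes lower in Cd1 than in As1. CSS0035553 had FPKM of 1.23 and 4.50 in Cd1, 281, 126 and 301 in As1, and 9.86, 37.3 and 23.9 in CK. The As1 libraries were all above CK and the Cd1 libraries all below it, without overlap. The log2 fold change of Cd1 vs. As1 was -5.98 ± 0.61 (SE, FDR = 0.00117), composed of -2.64 for Cd1 vs. CK (FDR = 0.0361) and 3.34 for As1 vs. CK (FDR = 0.0126). This gene and CSS0032053 were the 2 DEGs called against CK in opposite directions. In both, the call of Cd1 vs. As1 was in the core, but the opposite calls against CK were not stable. Their number was 0 without Cd1-1, Cd1-2, As1-3, CK-2 or CK-3 and 1 without As1-1. CSS0032053 was far more abundant, with 357 and 427 FPKM in Cd1, 1730, 1700 and 1770 in As1, and 732, 1030 and 693 in CK. Its log2 fold change was -2.15 ± 0.24 (SE, FDR = 0.00167), and with only Cd1 and As1 in the fit the FDR was 0.0503.

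A larger set of genes was high in As1 and in CK and low only in Cd1. CSS0029549 had 1.98 and 11.3 FPKM in Cd1, against 235, 155 and 610 in As1 and 111, 243 and 133 in CK. The higher of the Cd1 libraries lay far below the lowest of the 6 others, at 11.3 against 111 FPKM. Its log2 fold change of Cd1 vs. As1 was -5.54 ± 0.65 (SE, FDR = 0.00206), while As1 vs. CK was 0.88 (FDR = 0.455). CSS0016666 showed the same order, with 1.27 and 13.2 FPKM in Cd1, 380, 340 and 488 in As1 and 166, 362 and 110 in CK (log2 fold change -6.14 ± 0.82, SE, FDR = 0.00476). Its call did not hold with limma-voom on the recovered fragments (FDR = 0.0609). In CSS0047214 the Cd1 libraries had 3.79 and 10.9 FPKM, the As1 libraries 705, 628 and 877, and the CK libraries 174, 290 and 468. This was the largest decrease among the genes with a CSS identifier that were named, at -6.60 ± 0.98 (SE, FDR = 0.00719), and it fell just short without Cd1-1 (FDR = 0.0562).

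CSS0013753 and CSS0038699 were the most abundant DEGs of this kind whose call held in every fit. CSS0013753 had 54.1 and 46.8 FPKM in Cd1, 772, 1380 and 1310 in As1, and 355, 398 and 428 in CK. CSS0038699 had 93.3 and 105 FPKM in Cd1, 938, 1060 and 1070 in As1, and 587, 696 and 1050 in CK. In both genes the Cd1 libraries lay close together and far below all 6 other libraries. The log2 fold changes of Cd1 vs. As1 were -4.44 ± 0.43 (FDR = 0.00117) and -3.35 ± 0.46 (FDR = 0.00513), with SE. For Cd1 vs. CK they were -2.94 (FDR = 0.00479) and -2.92 (FDR = 0.00636).

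CSS0006251 differed from these in that its untreated level was the highest of the 3 groups. It had 4.32 and 1.30 FPKM in Cd1, 181, 89.7 and 124 in As1, and 208, 317 and 796 in CK. The groups did not overlap, and the log2 fold change was -5.18 ± 0.70 for Cd1 vs. As1 (SE, FDR = 0.00476) and -6.74 for Cd1 vs. CK (FDR = 0.000782), the largest against CK among the named genes. The call against As1 was lost without Cd1-2, with limma-voom and with the identical library kept under both labels. The remaining genes among the 10 largest decreases, CSS0032001, CSS0040758, CSS0001049 and CSS0010310, had log2 fold changes of Cd1 vs. As1 between -5.65 and -5.27 and were each called against CK only in Cd1. Each of these 4 calls was lost without Cd1-1 or without Cd1-2, or in either case, and that of CSS0032001 was also lost without As1-3.

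A further group was low in Cd1 and in CK and high only in As1. CSS0038288 had 0 and 0.643 FPKM in Cd1, 47.3, 38.8 and 39.1 in As1, and 1.79, 3.82 and 5.17 in CK. The 3 As1 libraries stood apart from all 5 others. The log2 fold change of Cd1 vs. As1 was -5.05 ± 0.57 (SE, FDR = 0.00172), and As1 vs. CK gave 3.29 (FDR = 0.00944), whereas Cd1 vs. CK was not called (-1.77, FDR = 0.108). CSS0047406 had 1.43 and 0.531 FPKM in Cd1, 91.8, 39.9 and 57.6 in As1, and 0.761, 4.93 and 2.14 in CK. Its Cd1 libraries lay within the range of CK or just below it, and its log2 fold change of Cd1 vs. As1 was -4.97 ± 0.58 (SE, FDR = 0.00203). Both calls held in every fit. CSS0012297, named after its values were seen, had the smallest FDR of As1 vs. CK in the core (7.01e-06, log2 fold change 4.23). It had 0.280 and 0.437 FPKM in Cd1, 31.4, 39.6 and 54.3 in As1, and 1.19, 1.13 and 1.34 in CK.

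**Figure D2:**
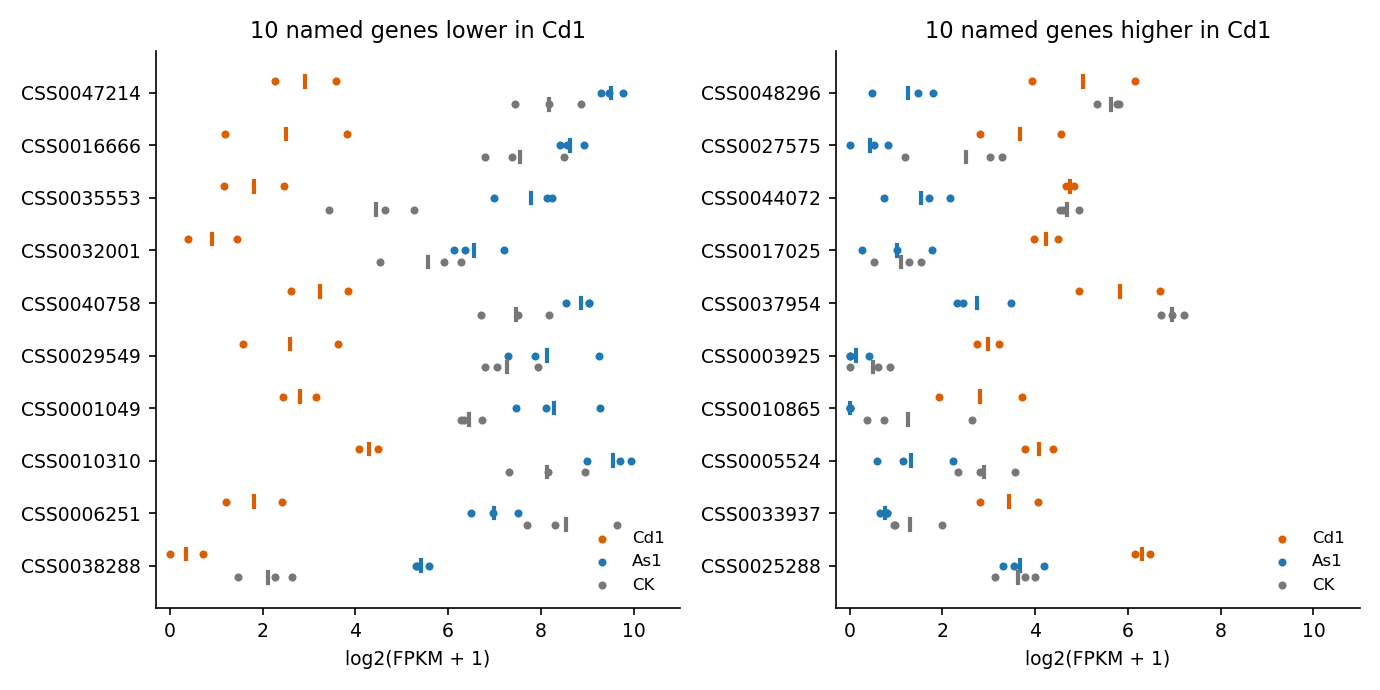
Log2(FPKM + 1) of the 10 named genes with the largest decrease (left) and the 10 with the largest increase (right) of Cd1 vs. As1. Points are single libraries of Cd1 (orange), As1 (blue) and CK (grey), and bars are group means; CK lies near As1 in genes such as CSS0029549 and CSS0025288 and near Cd1 in CSS0044072.

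Among the genes higher in Cd1, CSS0025288 was the one of the 10 largest whose call held in every fit. It had 69.7 and 88.2 FPKM in Cd1, 10.6, 17.3 and 8.83 in As1, and 15.0, 12.7 and 7.73 in CK. As1 and CK overlapped and Cd1 lay above both. The log2 fold change was 2.64 ± 0.29 for Cd1 vs. As1 (SE, FDR = 0.00167), 2.68 for Cd1 vs. CK (FDR = 0.000891) and 0.04 for As1 vs. CK (FDR = 0.955). CSS0017025 behaved in the same way, with 21.5 and 14.6 FPKM in Cd1, 1.04, 2.44 and 0.201 in As1, and 1.90, 1.43 and 0.429 in CK (log2 fold change of Cd1 vs. As1 3.20 ± 0.44, SE, FDR = 0.00513). Its call was lost when the identical library was kept under both labels (FDR = 0.0571).

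Other genes higher in Cd1 were below CK in As1 and were not called in Cd1 vs. CK. CSS0044072 had 27.6 and 24.5 FPKM in Cd1, 3.51, 2.29 and 0.672 in As1, and 22.1, 29.8 and 23.3 in CK. The Cd1 libraries fell within the CK range, and no As1 library came near it. Its log2 fold change of Cd1 vs. As1 was 3.21 ± 0.51 (SE, FDR = 0.00937) and that of As1 vs. CK was -3.15 (FDR = 0.00706), although the call was lost without either Cd1 library. CSS0048296 gave the largest increase, 3.79 ± 0.60 (SE, FDR = 0.00883), with 69.7 and 14.3 FPKM in Cd1, 2.49, 1.76 and 0.397 in As1, and 39.2, 53.2 and 55.1 in CK. Its Cd1 libraries lay on either side of the CK range, and the call was lost without Cd1-1. CSS0037954 had 103 and 29.9 FPKM in Cd1, 4.0, 10.1 and 4.43 in As1, and 104, 122 and 146 in CK, with both Cd1 libraries below CK (-1.12 for Cd1 vs. CK, FDR = 0.288) and As1 lower still. Its call against As1 was lost without Cd1-1, As1-1 or As1-3.

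Of the 5 most abundant genes named among those higher in Cd1, 3 were called against CK in neither treatment. CSS0027701, the most abundant, had 865 and 1000 FPKM in Cd1, 275, 361 and 172 in As1, and 432, 563 and 406 in CK. The untreated libraries lay between the treatments without overlap, and the log2 fold change was 1.85 ± 0.31 for Cd1 vs. As1 (SE, FDR = 0.0121), 1.01 for Cd1 vs. CK (FDR = 0.0905) and -0.84 for As1 vs. CK (FDR = 0.135). CSS0011810 and CSS0013482 had the same order of group means. All 3 calls were lost when either Cd1 library was left out. That of CSS0011810 was also lost without As1-1, As1-3 or CK-2, and that of CSS0013482 without As1-1, As1-3 or any CK library. CSS0016051 differed, with 177 and 145 FPKM in Cd1, 58.0, 60.8 and 55.9 in As1, and 39.2, 66.1 and 54.0 in CK, and was called against CK only in Cd1. Its call against As1 was lost without Cd1-1, Cd1-2 or As1-3.

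Over all 640 DEGs, the same model was used to ask which treatment differed from CK. The background was 3.28% of genes called in Cd1 vs. CK (990 DEGs, with 170 or 0.562% higher and 820 or 2.71% lower) and 1.34% in As1 vs. CK (405 DEGs, with 103 or 0.341% higher and 302 or 0.999% lower). Cd1 vs. CK gave 268 DEGs without Cd1-1, 354 without Cd1-2, 468 without CK-2 and 347 without CK-3. As1 vs. CK gave 226 DEGs without As1-1, 97 without As1-3, 242 without CK-1, 216 without CK-2 and 157 without CK-3. After quantile normalization, 70.1% of the Cd1 vs. CK DEGs were lower, against 82.8% as deposited. Of the 640 DEGs, 258 were called against CK only in Cd1, and 204 of those were lower in Cd1 than in As1. Only As1 was called for 68 DEGs, 43 of them lower in Cd1 than in As1. Both were called for 11 DEGs, in opposite directions in 2 and in the same direction in 9, and neither was called for 303. These classes rest on thresholds and on a shared set of CK libraries. The 640 DEGs were picked on the same Cd1 and As1 libraries, so calls above the background follow in part from that choice. The sizes of the classes moved with single libraries. DEGs called only in Cd1 numbered 74 without Cd1-1, 56 without Cd1-2, 145 without As1-1, 114 without As1-3, 124 without CK-2 and 133 without CK-3. DEGs called only in As1 numbered 127 without As1-2 and between 24 and 43 without any other of the 8 libraries. DEGs called in neither numbered 99 without Cd1-1, 25 without Cd1-2, 147 without As1-1 and 87 without As1-3. Without CK-3 the class called in neither was larger, at 414 DEGs. In the core of 47 genes, 26 were called only in Cd1, 14 only in As1, 2 in both and in opposite directions, and 5 in neither.

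The 9 DEGs called in the same direction in both treatments were all lowest in Cd1 and highest in CK. Their log2 fold changes lay between -5.05 and -2.21 for Cd1 vs. CK, between -2.90 and -1.06 for As1 vs. CK, and between -2.39 and -1.15 for Cd1 vs. As1. CSS0021954 had 1.07 and 0.149 FPKM in Cd1, 4.15, 7.53 and 6.28 in As1, and 80.0, 26.4 and 59.4 in CK. The 3 groups did not overlap. CSS0017737 had 0 and 1.45 FPKM in Cd1, 4.27, 10.7 and 7.91 in As1, and 30.7, 28.8 and 28.0 in CK. None of the 9 genes was in the core, and this class held between 1 and 7 genes when single libraries were left out.

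For the 431 DEGs lower in Cd1, the median log2 fold change was -1.48 for Cd1 vs. CK and 0.44 for As1 vs. CK. Cd1 lay below CK in 425 of them, while As1 lay above CK in 323 and below it in 108. For the 209 DEGs higher in Cd1, the medians were 0.88 for Cd1 vs. CK and -0.73 for As1 vs. CK, with Cd1 above CK in 201 genes and As1 below CK in 186. The CK mean lay between the Cd1 and As1 means in 493 of the 640 DEGs, 315 of the lower and 178 of the higher. The median over all genes tested was 0.038 for Cd1 vs. CK and 0.015 for As1 vs. CK. Of the 30226 genes tested, Cd1 lay below CK in 14165 and above it in 16061. As1 lay above CK in 15508 of them and below it in 14718. The DEGs were picked by the difference between the same Cd1 and As1 libraries. Their positions against CK, and CK lying between the treatments, thus follow in part from that choice.

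**Figure D3:**
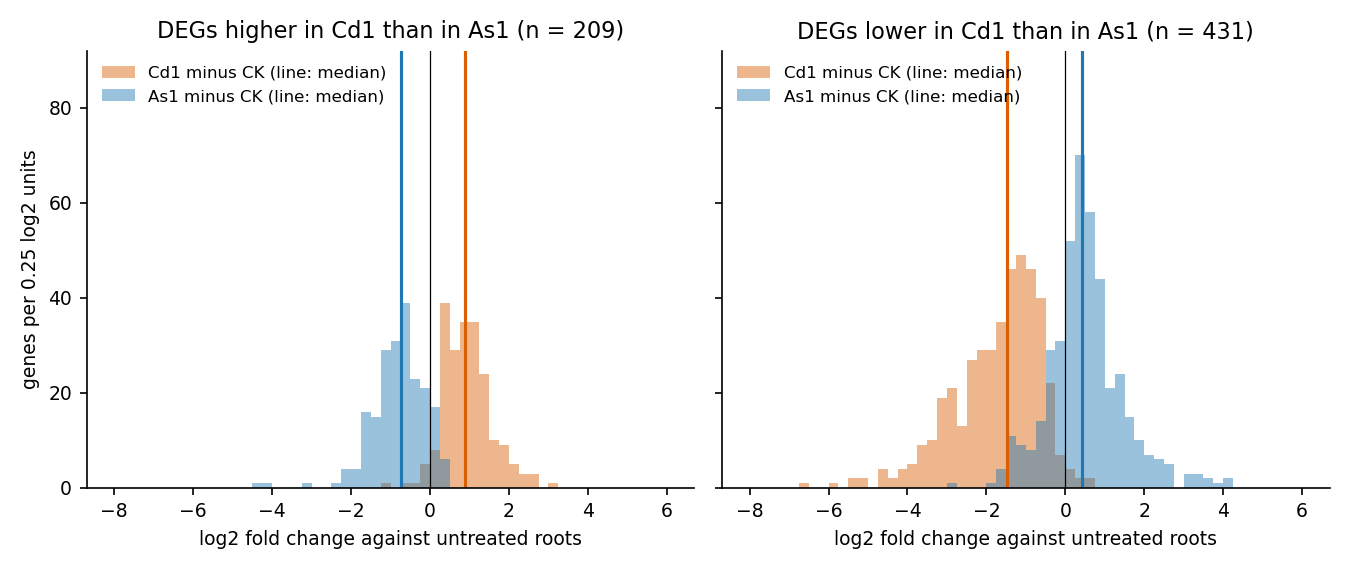
Log2 fold changes against CK of the DEGs higher in Cd1 than in As1 (left, 209 genes) and lower in Cd1 than in As1 (right, 431 genes), for Cd1 (orange) and As1 (blue), in bins of 0.25. Vertical lines mark the medians, 0.88 and -0.73 on the left and -1.48 and 0.44 on the right; the 2 distributions in a panel share the CK libraries and were split by Cd1 vs. As1.

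Some genes were read under only 1 of the treatments. An FPKM of at least 1 in every Cd1 library with 0 in every As1 library was found for 31 genes, and the reverse for 20 genes. The counts are not like for like, as As1 had more libraries than Cd1. Of the 31 genes, 23 were above 0 in at least 1 CK library and 19 were DEGs, and of the 20 genes 18 were above 0 in CK and 7 were DEGs. Among all genes tested, 2.12% were DEGs. The genes counted here were picked by the gap between the same libraries, so a higher share follows in part from that choice. With a limit of 0.5 FPKM the numbers were 99 and 51, and with a limit of 2 FPKM they were 6 and 7, so the larger number on the Cd1 side was not present at the highest limit. CSS0010865 had 12.1 and 2.79 FPKM in Cd1, 0 in each As1 library, and 5.25, 0.661 and 0.287 in CK. With 3 fragments per As1 library as the floor, the mean of its Cd1 libraries was at least 26.1-fold higher. The call of CSS0010865 was lost when any 1 of the As1 libraries was left out. CSS0002290 had 5.41 and 4.28 FPKM in Cd1, 0 in each As1 library, and 0, 0.964 and 0.120 in CK (at least 13.6-fold higher by the Cd1 mean, FDR = 0.00764).

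In the other direction, CSS0006282 had 0 in both Cd1 libraries, 15.3, 7.54 and 40.3 FPKM in As1, and 9.52, 38.0 and 6.54 in CK. By the mean of the As1 libraries the gene was at least 61.6-fold lower in Cd1, yet it missed the threshold (FDR = 0.0646). Its As1 and CK libraries overlapped, and As1 varied from 7.54 to 40.3. A gene outside the reference annotation had 0 in both Cd1 libraries, 21.0, 93.1 and 46.5 FPKM in As1, and 6.83, 81.2 and 1.46 in CK, and also missed it (FDR = 0.0556). The largest fitted decrease of all DEGs, -8.06 ± 1.90 (SE, FDR = 0.0463), also belonged to a gene outside the reference annotation. It had 0 and 0.507 FPKM in Cd1, 194, 208 and 860 in As1, and 66.1, 143 and 40.8 in CK, and its call was lost without any single Cd1, As1 or CK library.

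At 15 d few genes told the treatments apart. In Cd2 vs. As2, 1 gene passed the same threshold (0.00331% of 30226), and 1095 genes (3.62%) passed the fold limit at an unadjusted p under 0.05. That gene, CSS0038485, named after its values were seen, had 49.0, 47.5 and 49.1 FPKM in Cd2 and 19.8, 20.0 and 20.7 in As2. At 10 d it had 29.8 and 31.3 FPKM in Cd1, 29.8, 29.2 and 29.6 in As1, and 31.1, 25.1 and 29.3 in CK, and it was not among the 640 DEGs. Of the 640 DEGs of Cd1 vs. As1, 59.2% had the same sign in Cd2 vs. As2, against 56.3% of all genes tested. The medians of Cd2 vs. As2 were 0.17 for the 209 genes higher in Cd1 and -0.10 for the 431 genes lower in Cd1. The 15 d libraries share no library with the 10 d ones.

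The change of the Cd to As difference with time was tested as the interaction of metal and time. It passed for 113 genes (0.374%), with 35 (0.116%) positive and 78 (0.258%) negative, and 14 of the named genes were among them. These 14 had been named for their difference at 10 d, so their passing follows in part from the choice. The number was 10 with the identical library kept under both labels, 20 without Cd1-1, 26 without Cd1-2, and between 51 and 63 without As1-1, As1-2, As1-3 or CK-2. For CSS0029549 the Cd libraries were the low ones at 10 d and the high ones at 15 d, with 145, 155 and 230 FPKM in Cd2 and 22.7, 66.6 and 33.7 in As2. The log2 fold change was 2.19 ± 0.58 for Cd2 vs. As2 (SE, FDR = 0.178), and the difference between the times was -7.73 (FDR = 0.00537). CSS0038288 was low in both groups at 15 d, with 1.56, 1.76 and 3.89 FPKM in Cd2 and 0.736, 7.47 and 1.30 in As2. CSS0013753 had 170, 407 and 234 FPKM in Cd2 and 161, 356 and 129 in As2, which overlapped. Library As2-2 stood above As2-1 and As2-3 in several of these genes, such as CSS0047214, with 29.7, 78.3 and 82.4 FPKM in Cd2 and 18.0, 283 and 14.5 in As2.

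**Figure D4:**
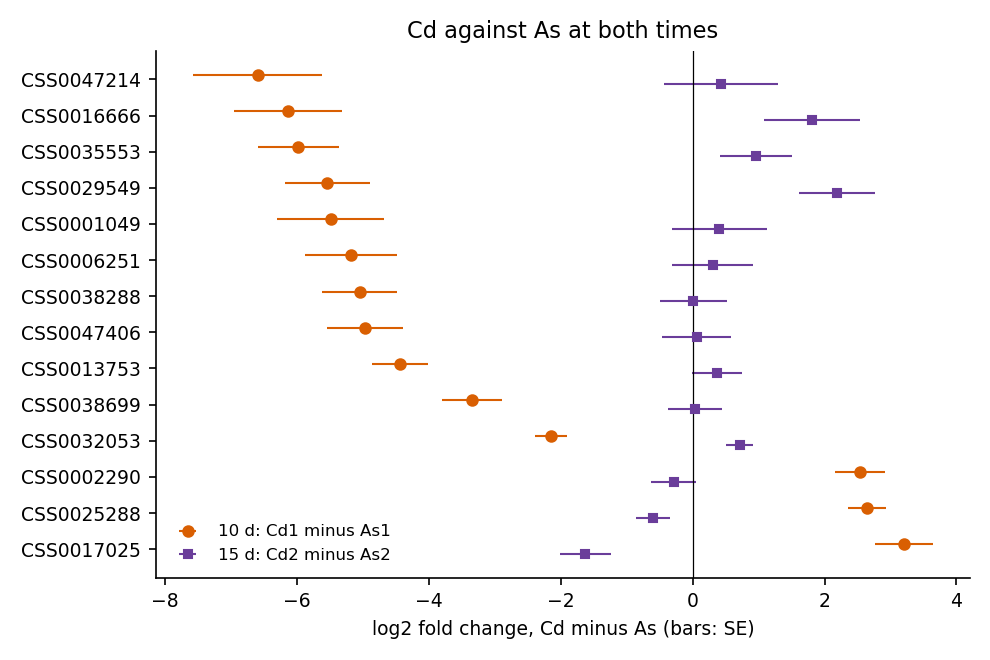
Log2 fold change of Cd minus As at 10 d (orange circles, Cd1 minus As1) and at 15 d (purple squares, Cd2 minus As2) for the 14 named genes whose metal by time interaction passed the threshold; bars are SE. CSS0029549 changes from -5.54 at 10 d to 2.19 at 15 d, and CSS0038288 lies at 0.01 at 15 d.

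Gene families were known only for the 22 genes to which the study's text gives one. They were chosen by the study on these samples for their response against CK, so their direction against CK is not independent evidence. The same holds for Cd1 vs. As1, which uses the same libraries. The study lists CSS0032956 as reduced under As, CSS0030465 as reduced under both elements and the other MYB genes as reduced under Cd. Of the 22 genes, 19 were tested in Cd1 vs. As1 and 1 was called, higher in Cd1 (0 lower), against a background of 2.12% of genes called. Their median log2 fold change was -0.27, against 0.002 for all genes tested, and 9 of the 19 had Cd1 and As1 libraries that did not overlap, against 34.2% of all genes tested. The 3 genes too low to be tested were CSS0015964 (MYB), CSS0043971 (AP2/ERF) and CSS0050491 (raffinose pathway), with FPKM of at most 1.04 in every Cd1 and As1 library.

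The 1 called gene was CSS0032956, a MYB transcription factor. It had 7.09 and 14.1 FPKM in Cd1, 2.14, 2.85 and 0.452 in As1, and 9.28, 8.38 and 5.31 in CK. The Cd1 libraries overlapped with CK and the As1 libraries lay below both. The log2 fold change was 2.09 ± 0.43 for Cd1 vs. As1 (SE, FDR = 0.029), 0.38 for Cd1 vs. CK (FDR = 0.669) and -1.71 for As1 vs. CK (FDR = 0.0464). The call was lost without Cd1-1, Cd1-2, As1-1 or As1-3, and in 4 other fits.

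The other 6 MYB genes tested had negative log2 fold changes of Cd1 vs. As1 and did not pass. That of CSS0043569 was near 0 (-0.07 ± 0.36, SE, FDR = 0.937), and its sign changed with single libraries left out. This gene was not below CK in Cd1 (0.08, FDR = 0.932). MYB proteins are a large family of plant transcription factors that act in secondary metabolism and in responses to stress. CSS0002706 had the largest value, -1.84 ± 0.71 (SE, FDR = 0.17), with 0.780 and 1.35 FPKM in Cd1, 7.93, 6.05 and 5.28 in As1, and 11.4, 16.5 and 29.2 in CK. Its 3 groups did not overlap and followed the order Cd1, As1, CK. CSS0030465 followed the same order, with 5.33 and 11.1 FPKM in Cd1, 13.9, 17.3 and 14 in As1, and 37.1, 32.1 and 48.6 in CK (log2 fold change of Cd1 vs. As1 -0.87 ± 0.32, SE, FDR = 0.159). It was lower than CK in both treatments (FDR = 0.00512 in Cd1 and 0.0431 in As1).

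The AP2/ERF genes, a family of transcription factors many of which respond to ethylene or dehydration, gave 5 tested genes and no DEG of Cd1 vs. As1. CSS0034513 had 2.05 and 0.581 FPKM in Cd1, 8.10, 1.49 and 6.35 in As1, and 79.0, 42.9 and 78.6 in CK. It was far below CK under either element (FDR = 0.00219 in Cd1 and 0.00972 in As1), whereas Cd1 and As1 overlapped (-1.33 ± 0.63, SE, FDR = 0.261). CSS0009309 was also below CK under either element, and its Cd1 and As1 libraries did not overlap, at 3.89 and 2.50 FPKM in Cd1 and 18.8, 5.21 and 4.19 in As1. It had log2 fold changes of -4.09 for Cd1 vs. CK and -3.03 for As1 vs. CK and -1.06 ± 0.68 between the treatments (SE, FDR = 0.414). CSS0000647, an ERF, had 1.26 and 0.885 FPKM in Cd1, 1.25, 0.700 and 1.16 in As1, and 14.1, 8.96 and 16.0 in CK, with 0.03 ± 0.35 for Cd1 vs. As1 (SE, FDR = 0.975). CSS0041447, the bHLH transcription factor of the list, had 105 and 56.9 FPKM in Cd1, 47.4, 77.5 and 38.1 in As1, and 26.8, 31.7 and 13.7 in CK. It was called in Cd1 vs. CK (1.72, FDR = 0.0402) and not in Cd1 vs. As1 (0.57 ± 0.41, SE, FDR = 0.473).

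Galactinol synthases (GolS) make galactinol, the galactosyl donor from which plants build the sugars of the raffinose family. CSS0001107 had 5.10 and 5.27 FPKM in Cd1, 6.48, 5.62 and 3.81 in As1, and 39.4, 30.2 and 49.5 in CK. The Cd1 libraries lay within the As1 range and both groups lay far below CK, at -2.69 log2 units for each treatment (FDR = 0.000782 in Cd1 and 0.000638 in As1). CSS0035212 had 5.98 and 9.17 FPKM in Cd1, 9.96, 6.15 and 4.87 in As1, and 72.6, 65.3 and 110 in CK. CSS0019367, the third GolS gene, had the largest difference between the treatments, 0.66 ± 0.35 (SE, FDR = 0.306), with 5.68 and 4.99 FPKM in Cd1, 3.34, 4.28 and 1.77 in As1, and 23.3, 25.6 and 44.8 in CK. CSS0050491, whose ortholog in Arabidopsis is the raffinose synthase gene AtRFS5, had 0.449 and 0.374 FPKM in Cd1, 1.04, 0.959 and 0.186 in As1, and 8.26, 4.30 and 8.73 in CK.

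NCED cleaves carotenoids in the step that limits the synthesis of abscisic acid, and HIPPs are small proteins with a heavy metal-associated domain and an isoprenyl anchor. The NCED gene CSS0033791 had 0.522 and 0.725 FPKM in Cd1, 1.84, 0.310 and 1.02 in As1, and 14.4, 5.05 and 10.6 in CK. The HIPP gene CSS0006162 had 2.60 and 2.14 FPKM in Cd1, 2.60, 2.66 and 0.370 in As1, and 106, 62.8 and 75.8 in CK. In both genes the treatments overlapped and CK lay far above, with log2 fold changes of Cd1 vs. As1 of -0.27 ± 0.42 for NCED (FDR = 0.767) and 0.36 ± 0.39 for HIPP (FDR = 0.658), with SE. At 15 d the HIPP gene was above CK under either element, with 230, 224 and 233 FPKM in Cd2 and 366, 236 and 185 in As2, and these groups overlapped too. At 10 d, Cd1 vs. CK gave -4.58 (FDR = 0.000376) and As1 vs. CK -4.94 (FDR = 6.11e-05) for HIPP. CBL proteins are calcium sensors that bind and activate CIPK kinases. In the CBL gene CSS0004428 the Cd1 and As1 libraries overlapped, with 12.7 and 40.7 FPKM in Cd1, 21.2, 37.1 and 3.83 in As1, and 4.95, 2.19 and 4.95 in CK (0.58 ± 1.14 for Cd1 vs. As1, SE, FDR = 0.822).

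**Figure D5:**
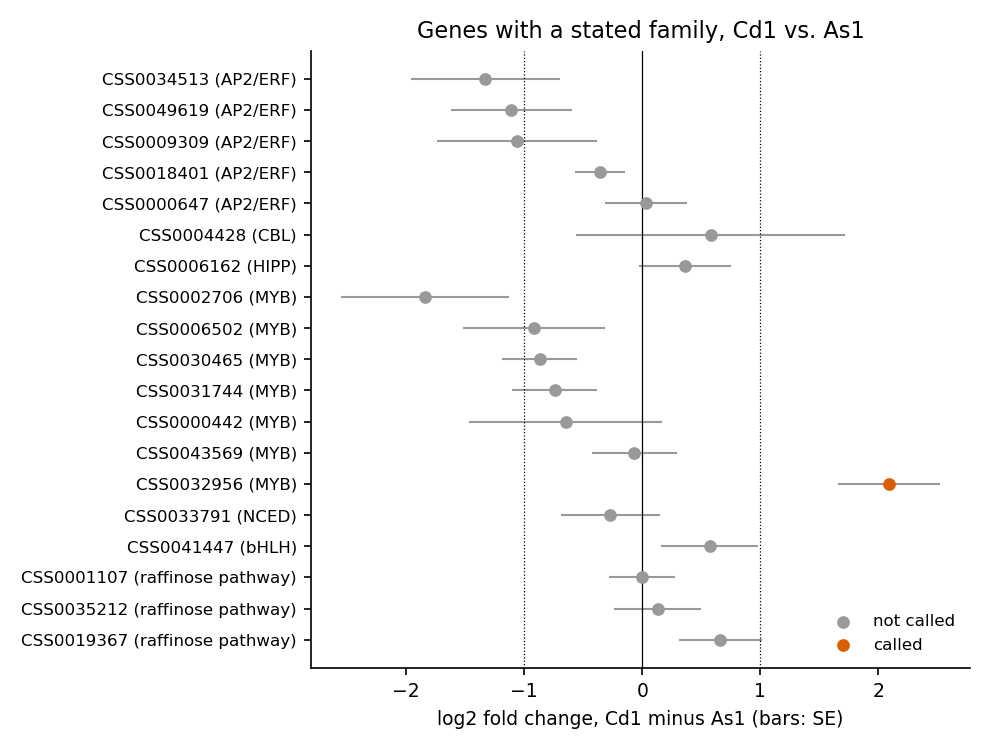
Log2 fold change of Cd1 minus As1 with SE for the 19 tested genes of known family. CSS0032956 at 2.09 is the 1 gene past the threshold (orange); dotted lines mark a log2 fold change of 1 in either direction.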

How the data were processed

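RNA-seq of 15 labelled root libraries was used. The authors aligned trimmed reads to the Camellia sinensis genome by HISAT and deposited an FPKM value per gene and library. The aligner version and genome build are not given in the sources used here. The deposited FPKM values are already scaled between libraries, with median ratios to the geometric mean library of 1.0124 to 1.016. The third file labelled Cd1 equalled Cd2-1 and was left out, so 14 libraries entered. Labels and methods name different extraction and library kits.

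Log2(FPKM + 1) was modelled over all 5 groups using R 4.3.3 and its package limma 3.58.1 (linear model, contrasts and moderated statistics with a mean trend). Genes entered if FPKM reached 1 in 2 of the 5 Cd1 and As1 libraries. DEGs had a Benjamini-Hochberg FDR under 0.05 over all genes tested and a |log2 fold change| over 1. Adjusted p-values are from this model, and values after ± are its standard errors. Whole fragments were recovered from the FPKM steps for all 46517 genes above 0, and used for depth, fold bounds (a floor of 3 fragments per library) and a limma-voom alternative. Fold bounds set the mean of the higher treatment against the floor and cover counting error only.

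Named genes were the 22 genes with a family in the study's text, the 10 CSS genes with the largest change and the 5 most abundant in each direction among DEGs without overlap, the 2 largest in each class against CK, and the 3 most abundant in each direction read under 1 treatment. The members and lists were chosen with earlier results of these data known. Alternatives varied the pseudocount, filter, scaling, libraries, model, block and threshold. The fit was tested on simulated data. No names, positions or sequences of the CSS genes were used here. Python 3.11.15, numpy 2.4.6, pandas 2.3.3, scipy 1.17.1 and matplotlib 3.10.9 were used.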

Additional observations from a re-analysis of the deposited data

Results flagged for a closer look

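The Cd to As difference at 10 d (Cd1 minus As1) differed from that at 15 d (Cd2 minus As2) in 14 of the named genes, by limma's interaction of metal and time. Genes lower in Cd1 at 10 d gave negative values, which were -7.95 log2 units for CSS0016666, -7.73 for CSS0029549, -7.03 for CSS0047214, -6.94 for CSS0035553, -5.88 for CSS0001049, -5.49 for CSS0006251, -5.06 for CSS0038288, -5.04 for CSS0047406, -4.82 for CSS0013753, -3.39 for CSS0038699 and -2.86 for CSS0032053. Genes higher in Cd1 at 10 d gave 4.83 for CSS0017025, 3.23 for CSS0025288 and 2.83 for CSS0002290. The adjusted p-values lay between 0.00537 and 0.0442. The genes had been named for their difference at 10 d, which is part of the interaction. The direction and size of these values and their passing of the threshold thus follow in part from the choice.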

How the results depend on the processing

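The number of DEGs of Cd1 vs. As1 (640) was 285 with array weights, 361 with limma-voom on recovered fragments, 378 without a filter on low FPKM, 288 with only Cd1 and As1 in the fit, 110 at an FDR under 0.01 and 2889 at an unadjusted p under 0.05. It ranged between 108 and 646 when single libraries were left out. With the identical library kept under both labels it was 888, with 50.3% lower in Cd1 against 67.3% as reported. The share lower in Cd1 was 52.0% at an unadjusted p under 0.05 and 57.9% with limma-voom. At an FDR under 0.01 it was 80.0%, and with only Cd1 and As1 in the fit 85.8%. For Cd1 vs. CK (990) the number was 624 with array weights, 261 with the identical library kept under both labels, 525 with limma-voom, 220 at an FDR under 0.01, 3190 at an unadjusted p under 0.05, and 268 to 1135 with single libraries left out. For As1 vs. CK (405) it was 631 with array weights, 246 with the identical library under both labels, 168 with only CK, Cd1 and As1 in the fit, 87 at an FDR under 0.01, 1978 at an unadjusted p under 0.05, and 97 to 403 with single libraries left out. For Cd2 vs. As2 (1) it was 23 with array weights, 2 with limma-voom, 2 with a pseudocount of 0.1, 4 after quantile normalization, 1095 at an unadjusted p under 0.05, and 1 to 4 with single libraries left out. It was 0 in limma with the identical library kept under both labels (1091 at an unadjusted p under 0.05), with it left out under both (850) and without a trend (1080). For the interaction of metal and time (113) it was 10 with the identical library under both labels, 64 with it left out under both, 40 with limma-voom, 57 without a filter, 13 at an FDR under 0.01, 2573 at an unadjusted p under 0.05, and 20 to 100 with single libraries left out. The causes were not tested.

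With the replicate number as a block, the counts were 380 for Cd1 vs. As1, 636 for Cd1 vs. CK, 0 for Cd2 vs. As2 (1104 at an unadjusted p under 0.05) and 62 for the interaction. Deviations of same-numbered libraries from their group means correlated between -0.323 and 0.299, so the numbers were not taken as a pairing.

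Of 38 named DEGs, 7 were called in every fit. No named DEG changed direction. Uncalled genes with differences near 0 changed sign. CSS0000647 gave -0.033 with array weights, -0.101 after quantile normalization and -0.101 to 0.159 with single libraries left out. With the identical library under both labels, CSS0041447 gave -0.03, CSS0001107 gave 1.307 and CSS0033791 gave 0.973. CSS0001107 also gave 0.009 with limma-voom, 0.001 with a pseudocount of 0.1 and -0.187 to 0.132 with single libraries left out. With single libraries left out, CSS0043569 ranged between -0.454 and 0.311, CSS0035212 between -0.144 and 0.398, CSS0006162 between -0.111 and 0.599, and CSS0004428 between -0.283 and 1.385.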
